A study of Mus musculus with 3 samples.

Results

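Resting CD4 T cells of the mouse lung were chosen by transcript counts alone. A member was a cell barcode with at least 1000 UMIs (unique molecular identifiers, each standing for 1 captured RNA molecule), at least 500 detected genes and at most 10% of UMIs from mitochondrial genes. It held at least 2 UMIs of the CD3 genes Cd3d, Cd3e and Cd3g, at least 1 of Cd4, 0 of Cd8a and Cd8b1, 0 of Foxp3, at most 1 of the 5 activation genes Ikzf2, Ctla4, Icos, Cxcr6 and Maf, and at most 1 of Cd79a, Epcam, Cdh5 and Marco. Of 12458 kept barcodes in 3 libraries, 672 met the rule: 231 of 2947 in WT healthy, 199 of 4374 in WT tumour and 242 of 5137 in PPARg-/- tumour. Runs of 3 values below keep this order.

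The mice carried Ccsp-rtTA and TetO-EGFRL858R, a pair of transgenes that gives doxycycline-dependent mutant EGFR in the lung epithelium, where the Ccsp promoter is active. WT healthy mice had these transgenes only, WT tumour mice also had 2 floxed Pparg alleles, and PPARg-/- tumour mice had those alleles with Csf1rCre, which expresses Cre recombinase under the promoter of a monocyte and macrophage receptor gene. All groups were fed chow with 625 ppm doxycycline and were 16 to 20 weeks old per the labels, and why the healthy mice had no tumours is not given there. Cells of 3 mice were pooled into 1 library per group after sorting, and T cells (CD45+ CD3+), alveolar macrophages, CD11b+ macrophages and epithelial cells were mixed in equal parts, so the share of T cells in a library was set by the mixing. With 1 library per group no difference between groups could be tested, and all intervals are exact 95% intervals that cover counting error only.

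CD4 T cells recognise peptides on MHC class II molecules. Before they meet antigen they recirculate between blood and lymphoid organs, a state kept by the transcription factors Lef1, Tcf7, Klf2 and Foxo1 and by the homing receptors Ccr7 and S1pr1. After activation, memory and effector cells gain S100 proteins, galectins, annexins and adhesion molecules, and some take up residence in tissue.

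The 3 libraries held 30454790, 46148658 and 44548318 UMIs, and the members 900006, 674262 and 685359 of them, with medians of 3717, 3089 and 2627.5 UMIs and 1281, 1110 and 970.5 genes per cell. WT healthy shared 4 kept barcodes with WT tumour and 5 with PPARg-/- tumour, and the tumour libraries shared 6. Of these barcodes 0 were members in both libraries of a pair, and 1 was a member in only 1 of WT healthy and WT tumour. The members' Xist level was 787, 0 and 0 CPM (UMIs per 1000000 UMIs of the members) and that of the Y-linked gene Ddx3y was 0, 81.6 and 80.2 CPM, although the labels give both sexes for the study. Tumour, sex transcripts and floxed alleles therefore separated WT healthy from WT tumour together and cannot be told apart. Pparg itself had 4, 6 and 5 UMIs in the members, too few to compare.

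A small number of members carried RNA of monocytes. At least 10 UMIs of 13 monocyte and macrophage genes were found in 6, 9 and 7 members (2.60%, 4.52% and 2.89%), while the other members had at most 8, 7 and 5. These 22 cells had medians of 7372, 7523 and 5864 UMIs against 3676, 3063.5 and 2580 in the other members, and Scrublet, a doublet caller, marked 3, 8 and 5 of them. They held 127 of the 134 Ifitm3 UMIs, 52 of the 59 Plac8 UMIs and 42 of the 45 Lyn UMIs of all members in WT tumour. Whether they are doublets was not tested. The counts of genes called between groups and many of the list results are given with and without these cells, a choice made after the data were seen. Marker levels, shares of members, the comparison with CD8 T cells and the naive to memory range include them.

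The members' naive T cell markers were present in all 3 libraries. Lef1 (chr3:131110471-131224356, plus strand, GRCm38), a partner of beta-catenin in T cell development, stood at 700, 578 and 537 CPM. Tcf7 (chr11:52252371-52283014, minus strand), which encodes TCF-1, stood at 569, 593 and 519 CPM. In WT tumour over WT healthy Lef1 was lower, within 1.5-fold, with a log2 ratio of -0.28 (interval -0.46 to -0.09). Tcf7 was at a similar level in both (0.06, -0.13 to 0.25). Satb1 (chr17:51736187-51833290, minus strand), a genome organiser of T cells, was highest in WT healthy, at 1069 CPM against 614 and 606. Igfbp4 (chr11:99041244-99054392, plus strand), an insulin-like growth factor binding protein, showed the opposite order, with 221 CPM in WT healthy and 380 and 398 CPM in the tumour libraries. Cd4 (chr6:124864692-124888221, minus strand) stood at 373, 387 and 455 CPM, a level the rule used.

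Lef1 and Igfbp4 were nearly absent from B cells. After each cell was thinned to 1000 UMIs, Lef1 was detected in 50.2%, 40.7% and 44.2% of members, against 0%, 1.47% and 0.833% of B cells. Without thinning the Lef1 shares of members were 89.2%, 74.4% and 74.4%, and those of B cells 1.59%, 1.47% and 0.833%. Median depths of the B cells were 3185, 2049 and 1947.5 UMIs. Igfbp4 was found in 15.6%, 23.6% and 30.6% of thinned members (38.5%, 54.3% and 50.8% without thinning) and in 0% of B cells in each library. Satb1 was found in 65.8%, 45.2% and 46.7% of thinned members and in 19.0%, 19.1% and 19.2% of B cells. Ccr7, a receptor for entry into lymph nodes, stood at 383, 350 and 293 CPM, and the interleukin 7 receptor gene Il7r at 727, 943 and 982 CPM. After thinning, Ccr7 was found in 26.0% of members and 27.0% of B cells in WT healthy, and in 30.2% and 19.1% in WT tumour. The members thus held the given markers, with Cd8a, Cd8b1 and Foxp3 at 0 by the rule. Lef1, Tcf7 and Satb1 were not particular to them. Lef1 was found in 31.8%, 31.1% and 28.9% of thinned CD8 T cells (Cd8a and Cd8b1 in place of Cd4 in the rule). The CD8 shares were 36.8%, 33.5% and 30.2% for Tcf7 and 45.3%, 33.7% and 30.6% for Satb1. Tcf7 was found in 45.0%, 47.2% and 39.7% of thinned members. In Foxp3-negative CD4 T cells with 2 or more activation UMIs the Tcf7 shares were 33.3%, 34.4% and 38.7%. In those cells Lef1 was found in 24.4%, 14.4% and 11.3% and Satb1 in 42.2%, 12.2% and 9.68%.

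**Figure D1:**
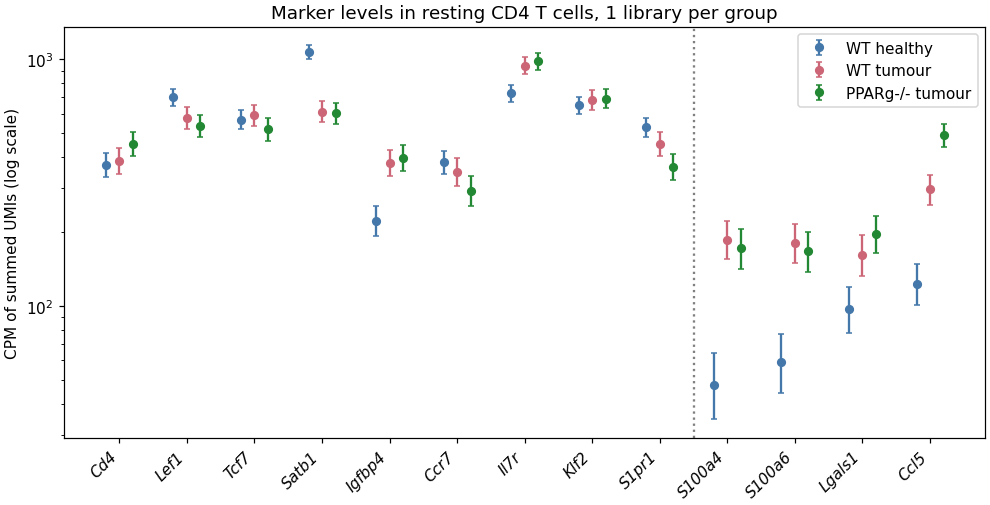
Level of 13 genes in resting CD4 T cells, as CPM of summed UMIs on a log axis, 1 point per library with its exact 95% Poisson interval (counting error only). The naive genes left of the dotted line lie between 221 CPM (Igfbp4, WT healthy) and 1069 CPM (Satb1, WT healthy), and S100a4, S100a6, Lgals1 and Ccl5 on the right are lowest in WT healthy.

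Transcripts of macrophages and epithelium were present in the members. Of 11 macrophage genes, 11 had a UMI in each library, with summed levels of 2430, 3233 and 5225 CPM in the members against 30661, 42439 and 77853 CPM in free RNA. Of the 10 epithelial genes 9 were seen in each library, at 316, 733 and 430 CPM in sum. Lyz2, a lysozyme of macrophages and alveolar epithelium, was detected in 23.4%, 45.2% and 63.6% of thinned members and in 22.2%, 54.4% and 70.0% of thinned B cells. The surfactant gene Sftpc was detected in 3.46%, 41.7% and 20.2% of thinned members and in 1 of 63, 28 of 68 and 30 of 120 thinned B cells. The B cell gene Ms4a1, the NK genes Ncr1, Klrb1c, Klra8 and Klre1 and the neutrophil genes S100a9, Retnlg and Mmp9 were at 0 in all 3 libraries. Summed levels were 133 to 448 CPM for 8 NK genes, 136 to 146 CPM for 7 endothelial genes, 203 to 271 CPM for 8 B cell genes, 75.9 to 97.9 CPM for 9 innate lymphoid genes and 2.97 to 20.4 CPM for 8 gamma-delta T cell genes. The part of these transcripts in the results below was not tested beyond the values given.

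Among CD4 T cells of any state, members made up 231 of 279 cells (82.8%, interval 77.8% to 87.0%) in WT healthy, 199 of 315 (63.2%, 57.6% to 68.5%) in WT tumour and 242 of 312 (77.6%, 72.5% to 82.1%) in PPARg-/- tumour. The WT tumour share was the lowest, and its interval did not overlap those of the other libraries. The intervals count cells within 1 pooled library each, and genes of the rule set the shares, so no difference between groups was tested. The rest were Foxp3-negative cells with 2 or more activation UMIs (45, 90 and 62) and Foxp3-positive cells (3, 26 and 8). When every cell was thinned to 1000 UMIs before the rule was applied, the shares were 91.8%, 69.6% and 84.6% of only 61, 79 and 104 CD4 T cells, in the same order. At that depth the interval of WT tumour (58.2% to 79.5%) overlapped that of PPARg-/- tumour (76.2% to 90.9%) and not that of WT healthy (81.9% to 97.3%). In the sorted and pooled material, fewer resting cells and more activated cells cannot be told apart.

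Members with 0 activation UMIs numbered 195, 170 and 205 and those with 1 numbered 36, 29 and 37, and 16, 18 and 20 cells were left out for having 2. Lef1 stood at 719, 589 and 532 CPM in members with 0 activation UMIs, at 599, 517 and 566 CPM in members with 1 and at 695, 151 and 258 CPM in the excluded cells with 2. S100a4, a calcium-binding protein of memory T cells, stood at 44.8, 139 and 139 CPM in members with 0, at 64.1, 447 and 358 CPM just inside the limit and at 210, 817 and 746 CPM just outside. Cells with monocyte RNA were not left out of these levels, and their part in the S100a4 values was not tested. Most members held a single Cd4 UMI (149, 147 and 179), and 268, 320 and 481 cells met every other limit with 0 Cd4 UMIs, so CD4 T cells without a captured Cd4 transcript are missing from the members.

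Resting CD4 T cells were set beside CD8 T cells picked by the same rule with Cd8a and Cd8b1 in place of Cd4 (201, 424 and 553 cells). Of 6507 genes measured in each library, 42 outside the rule were at least 1.5-fold higher in resting CD4 T cells in every library, with intervals that excluded 1, and 82 were lower. Both classes include cells with monocyte RNA, 6, 9 and 7 of the members and 2, 18 and 40 of the CD8 T cells. The CD40 ligand gene Cd40lg, with which helper T cells license antigen-presenting and B cells, stood at 111, 56.4 and 75.9 CPM in resting CD4 T cells and at 1.11, 2.45 and 1.53 CPM in CD8 T cells. Zbtb7b, which encodes the CD4 lineage factor ThPOK, stood at 62.2, 29.7 and 36.5 CPM against 4.46, 4.90 and 11.2 CPM. Izumo1r, the folate receptor 4 gene, stood at 65.6, 44.5 and 30.6 CPM against 11.1, 6.73 and 8.67 CPM. Further genes of this kind were St8sia6, Pdlim4, Itgb3, Tesc, Trat1, Trib2, Tbc1d4, Itga6, Cd28, Cd5, Bach2 and Il6ra. Igfbp4, one of the given markers, was also among them, with log2 ratios of 1.09, 1.54 and 1.88.

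The genes lower than in CD8 T cells held cytotoxic and chemokine genes. Ccl5, a chemokine of effector and memory T cells, stood at 122, 297 and 493 CPM in resting CD4 T cells and at 2960, 2084 and 3756 CPM in CD8 T cells. Nkg7, a cytotoxic granule protein, stood at 22.2, 29.7 and 39.4 CPM against 502, 524 and 648 CPM. Eomes, a transcription factor of CD8 memory cells, and Itgae, the integrin chain CD103, had 0 UMIs in the members of all 3 libraries. Eomes stood at 59.1, 31.2 and 32.6 CPM and Itgae at 42.4, 43.4 and 46.9 CPM in CD8 T cells, where 3 counts would be 3.33, 4.45 and 4.38 CPM of the members' totals. Ly6c1 was higher and Ly6c2 lower in resting CD4 T cells, but these are near-identical copies between which reads may be split. The genes in this paragraph and the one before were picked after their values were seen, and the comparison is a description.

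**Figure D2:**
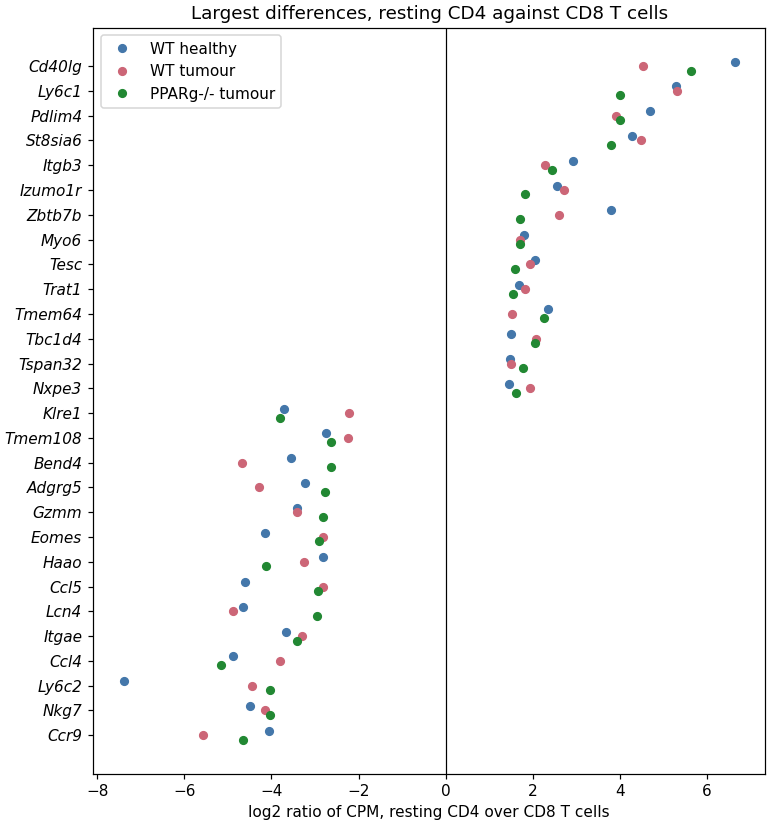
Log2 ratio of CPM in resting CD4 over CD8 T cells for 14 higher and 14 lower genes outside the rule, those whose ratio nearest to 0 over the 3 libraries lies farthest from 0, 1 point per library. Ratios for genes at 0 in 1 class are taken against a floor of 3 counts. Cd40lg lies at 6.64, 4.53 and 5.63, and Nkg7 at -4.50, -4.14 and -4.04.

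Members varied along a scale from naive to memory transcripts. With every cell thinned to 1000 UMIs, 209 of 231 members (90.5%, interval 85.9% to 93.9%), 174 of 199 (87.4%, 82.0% to 91.7%) and 207 of 242 (85.5%, 80.5% to 89.7%) had more UMIs of the 16 naive and central memory genes than of the 19 memory genes. More memory than naive UMIs were found in 12, 21 and 25 members (5.19%, 10.6% and 10.3%), and 10, 4 and 10 had equal numbers. The mean was 7.44, 7.24 and 6.95 naive UMIs and 1.89, 3.10 and 3.11 memory UMIs per cell. The intervals of the naive shares overlapped in all 3 libraries. These values include the members with monocyte RNA. Without those cells the naive shares stayed within the intervals above. The part of those cells in the memory UMIs was not tested, nor was that of free RNA. The memory list summed to 12066, 9580.5 and 12389 CPM in free RNA and to 2309, 3470 and 3152 CPM in the members. The naive list summed to 1415, 792 and 1009 CPM in free RNA and to 7191, 6889 and 6543 CPM in the members. A difference within 1 UMI was found in 20, 16 and 18 members, so the line between these ranges is not a border between cell types.

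**Figure D3:**
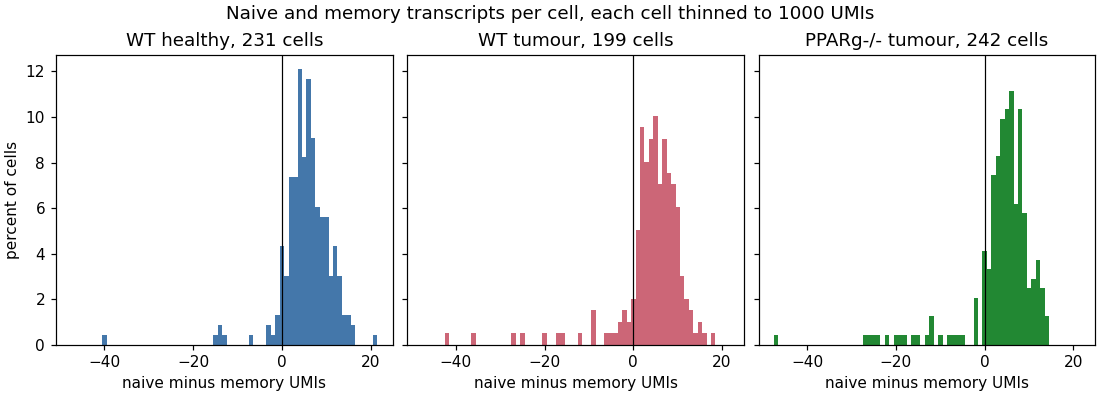
Percent of resting CD4 T cells (vertical axis) by the number of naive minus memory list UMIs (horizontal axis), 1 panel per library, each cell thinned to 1000 UMIs. Most cells lie right of 0 (90.5%, 87.4% and 85.5%), with a tail of cells rich in memory list transcripts on the left. Members with monocyte RNA are included, and the part of free RNA in the memory list UMIs was not tested.

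Tumour-bearing lungs were compared with healthy lungs first. Of 6582 genes with at least 20 UMIs over both libraries, 301 (4.57%) were at least 1.5-fold higher in WT tumour with an interval that excluded 1 and 354 (5.38%) were lower, and the median log2 ratio was -0.02. The limit is one of size, without a test. Without the cells carrying monocyte RNA, 210 of 6062 genes (3.46%) were higher and 346 (5.71%) lower, and 175 and 274 of these were called in both.

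Of 18 measured memory genes, 9 were higher in WT tumour and 0 lower (median log2 ratio 0.60), and without the monocyte-RNA cells 9 of 17 were higher with a median of 0.72. S100a4 (chr3:90603771-90606045, plus strand) stood at 47.8 and 185 CPM in WT healthy and WT tumour, a log2 ratio of 1.96 (1.45 to 2.49) that was 1.48 without those cells. S100a6, a related calcium-binding protein, stood at 58.9 and 179 CPM (1.61, interval 1.13 to 2.10). Ahnak, a large scaffold protein, had a ratio of 0.63 (0.33 to 0.93). The galectin gene Lgals1 was past 1.5-fold with all members (0.73) and not without the monocyte-RNA cells (0.56). S100a11, Lgals3, Anxa2 and Capg were also called higher, but their levels were open to free RNA, meaning that 10% of the free-RNA level reached 50% of the members' level. In the same comparison 7 of 19 memory genes were higher in CD8 T cells (median 0.37) and 8 of 19 in Foxp3-negative CD4 T cells with 2 or more activation UMIs (median 0.47). Over all genes measured in these classes, 560 of 8098 and 305 of 4048 were higher. Cells with monocyte RNA were not left out of these classes, and they numbered 2 of 201 CD8 T cells in WT healthy and 18 of 424 in WT tumour.

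S100a4 and Ccl5 UMIs sat in few members. Among members without monocyte RNA, S100a4 UMIs numbered 26, 51 and 81 in 4, 17 and 22 cells, and 3, 7 and 7 cells had 3 or more. After thinning, S100a4 was detected in 1.73%, 6.53% and 6.61% of all members and in 6.35%, 7.35% and 3.33% of B cells, whose own expression of it is not known here, so these shares alone are not read as expression. Ccl5 UMIs numbered 109, 200 and 338 in 6, 10 and 18 cells, and the highest cell of each library held 72, 87 and 82 of them. Lgals1 was spread more widely, with UMIs in 53, 43 and 55 of these 225, 190 and 235 members. Since such UMIs come together in single cells, the counting intervals of Ccl5 and S100a4 are narrower than the spread between cells.

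The naive genes showed little difference between WT tumour and WT healthy. Of 16 measured, 1 was higher (Igfbp4, log2 ratio 0.78, interval 0.51 to 1.05) and 2 were lower, namely Satb1 (-0.80, -0.97 to -0.63) and Foxo1, a factor that maintains Il7r and Klf2 (-0.61, -0.99 to -0.23). The list's median log2 ratio was -0.04. Without the monocyte-RNA cells Foxo1 was at -0.58, just inside the limit. Klf2 stood at 650 and 685 CPM and S1pr1, the receptor for egress from tissue, at 529 and 455 CPM.

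Heat-shock chaperone genes were lower in WT tumour. Of 16 measured genes 7 were lower and 0 higher, all 16 log2 ratios were below 0 and the median was -0.61. Without the monocyte-RNA cells 8 of 16 were lower with a median of -0.65. Hsph1, a nucleotide exchange factor of HSP70, stood at 136, 38.6 and 58.4 CPM, a log2 ratio of -1.81 (-2.48 to -1.19). Chordc1, a co-chaperone of HSP90, had 131, 27 and 43 UMIs (-1.86, interval -2.52 to -1.26). The HSP90 gene Hsp90aa1 stood at 760, 383 and 425 CPM (-0.99) and the co-chaperone gene Dnaja1 at 568, 303 and 320 CPM (-0.91). Hspa1a was lower (-0.74) whereas its near-identical copy Hspa1b was not past 1.5-fold (-0.13), and reads may be split between them.

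The same list was lower in the other T cells of these libraries. In CD8 T cells 10 of 16 heat-shock genes were lower in WT tumour (median -0.68), and in Foxp3-negative CD4 T cells with 2 or more activation UMIs also 10 of 16 (median -0.83). Over all genes measured in these classes, 393 of 8098 and 263 of 4048 were lower. Cells with monocyte RNA were not left out of these classes.

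The promoters of Chordc1 and Hsph1, the lowest members of this list, are shown with the heat-shock element in capitals, the sequence to which heat-shock factors bind. The motif searched was GAANNTTCNNGAA on both strands, which reads TTCNNGAANNTTC on the other strand. The windows run from 250 bases before to 50 bases after the start in the RefSeq table for GRCm38.p6, written 5′ to 3′ on the gene's strand.
Chordc1, chr9:18292017-18292316, plus strand: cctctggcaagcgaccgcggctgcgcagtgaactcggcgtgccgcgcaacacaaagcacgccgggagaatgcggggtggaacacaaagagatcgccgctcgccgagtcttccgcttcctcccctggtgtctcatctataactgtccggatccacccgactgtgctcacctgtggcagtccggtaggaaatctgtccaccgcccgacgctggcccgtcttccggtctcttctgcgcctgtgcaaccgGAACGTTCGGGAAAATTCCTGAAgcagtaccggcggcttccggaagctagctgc
Hsph1, chr5:149636266-149636565, minus strand: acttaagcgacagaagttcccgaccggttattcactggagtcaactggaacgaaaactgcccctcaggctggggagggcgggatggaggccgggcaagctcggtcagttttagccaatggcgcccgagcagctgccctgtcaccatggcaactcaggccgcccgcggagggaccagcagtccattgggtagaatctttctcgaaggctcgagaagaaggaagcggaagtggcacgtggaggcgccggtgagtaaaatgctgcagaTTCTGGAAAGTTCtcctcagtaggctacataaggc
Chordc1 held 3 overlapping matches and Hsph1 held 1. The motif was found in 198 of all 32851 windows (0.603%). Counted by gene, with the window of most matches, it was found in 179 of 27025 genes (0.662%). By this count 4 of the 15 heat-shock genes with a window held it (Chordc1, Hsph1, Hspd1 and Hspe1), and 2 of the 6 lower ones. The windows of Hspd1 (chr1:55087883-55088182) and Hspe1 (chr1:55087898-55088197) overlap, so the same matches may be counted for both. Hspd1 (log2 ratio -0.33) and Hspe1 (-0.17) hold the motif and were not past 1.5-fold. A match describes the letters only.

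Some immediate-early genes, which respond within minutes to receptor signals or to cell handling, were lower in WT tumour with and without the monocyte-RNA cells. With all members, 4 of 19 were lower in WT tumour (Cd69, Tnfaip3, Dusp2 and Zfp36l2) and Zfp36 was higher (0.94). Without those cells 6 of 18 were lower, with Fos (-0.60) and Dusp1 (-1.03) added, and Zfp36 (0.47) was no longer past 1.5-fold. Cd69, which retains T cells in tissue by opposing S1pr1, stood at 339, 142 and 111 CPM (-1.25, interval -1.60 to -0.92). Tnfaip3, an inhibitor of NF-kB signalling, stood at 152, 50.4 and 51.1 CPM (-1.59, interval -2.18 to -1.04). In CD8 T cells, with those carrying monocyte RNA included, 11 of 20 of these genes were lower, against 393 of all 8098 genes measured there.

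Receptor signalling and helper genes gave a few lower members. Of 17 T cell receptor and proximal signalling genes 3 were lower and 0 higher, among them the kinase gene Fyn (-0.68) and the costimulatory receptor gene Cd28 (429 and 252 CPM, -0.77). Of 5 measured helper genes Cd40lg (-0.98) and Tnf (-1.06) were lower. Among 15 homing genes, Cxcr4, a chemokine receptor, was lower (86.7 and 31.1 CPM, -1.48) beside Cd69, and Itga4 and Ccr2 were higher. Of the 63 Ccr2 UMIs in WT tumour, 56 lay in monocyte-RNA cells, and without these cells neither Itga4 nor Ccr2 was called.

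Lists of survival, cytokine and interferon genes differed in both directions or little. Bcl2, which protects resting lymphocytes from apoptosis, was higher (197 and 306 CPM, 0.64), while 5 of 19 quiescence and survival genes were lower: Klf6 (-0.69), Tob1 (-1.01), Txnip (-0.64), Foxo1 and the pro-apoptotic Bcl2l11 (-0.73). Of 21 cytokine signalling genes, Socs1 (1.07) and Cish (1.52), inhibitors of cytokine receptors, were higher on 36 and 22 UMIs over both libraries, and Stat5b was lower (-0.64). Of 26 interferon genes 3 were higher and 0 lower: Isg15 (0.95), Ifi208 (0.67) and Ly6a (0.61). The list's median was 0.13. With at most 5% mitochondrial UMIs 0 of 25 were higher and 1 lower, and without the monocyte-RNA cells 4 of 25 were higher.

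Of 14 glycolysis genes 2 were higher (Pgam1 and Eno1), and of 21 oxidative phosphorylation genes 1 was (Sdhc), with medians of 0.18 and 0.16. With the monocyte-RNA cells left out, 1 of 13 glycolysis genes was higher (Eno1) and 1 of 21 oxidative phosphorylation genes (Sdhb and no longer Sdhc). Of 13 cholesterol and lipid synthesis genes 3 were higher (Fdps, Msmo1 and Scd2, on 36, 31 and 31 UMIs) with a list median of 0.71, and without the monocyte-RNA cells only Scd2 (2.50) of 10, with a median of 0.51. Of 15 MHC class I genes 3 were higher (H2-Q7, Tapbp and Nlrc5) and 3 lower (H2-D1, H2-Q4 and Tap2). Tapbp was not called without the monocyte-RNA cells (0.52), and with at most 5% mitochondrial UMIs 2 genes were higher and 0 lower. H2-D1 stood at 1753, 1112 and 1180 CPM (-0.66). H2-Q6, H2-Q7 and H2-Q4 are near-identical and their reads may be split. Of 7 measured cytotoxic genes 4 were higher, of which Tyrobp and Fcer1g were open to free RNA and Gzma rested on 24 UMIs in 2 WT tumour cells. Of these, 3 were higher without the monocyte-RNA cells (Gzma, Ccl5 and Tyrobp). Of 6 proliferation genes 0 were past 1.5-fold.

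**Figure D4:**
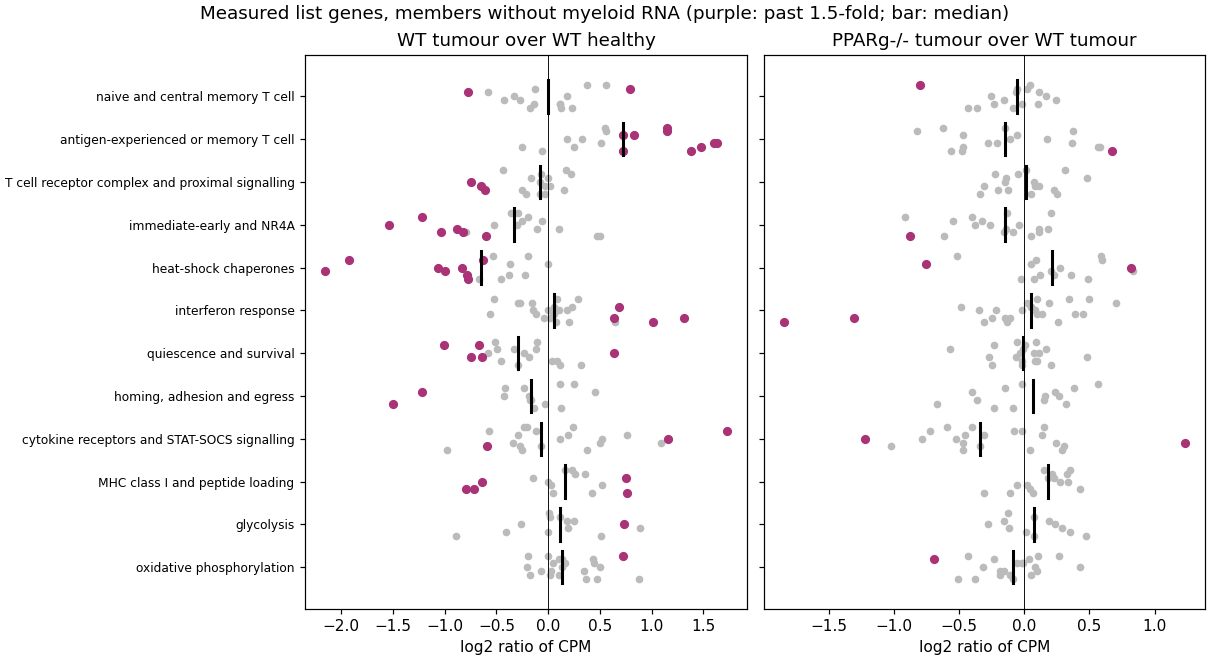
Log2 ratios of CPM of the measured genes of 12 lists (1 point per gene, black bar the median) in both comparisons, members with at least 10 monocyte and macrophage UMIs left out. Purple points are past 1.5-fold with an interval that excludes 1. Memory genes lie right of 0 (median 0.72) and heat-shock genes left of 0 (median -0.65) in WT tumour over WT healthy.

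The largest differences between WT tumour and WT healthy were in genes of several kinds. Under the rule for named genes the lowest were Gbp8, an interferon-inducible GTPase, at 52.2, 4.45 and 43.8 CPM (log2 ratio -3.55, interval -5.88 to -1.92) and Gdpd3, a lysophospholipase D, at 101, 10.4 and 29.2 CPM (-3.28, -4.64 to -2.18). They were followed by Chordc1, Hsph1, Banp (-1.70), the SLAM family receptor Ly9 (-1.63), the Notch pathway ubiquitin ligase Dtx1 (-1.61), Tnfaip3, the Ras-related GTPase Rras2 (-1.56) and Itm2a (-1.52). The highest under that rule were Plac8 (3.49), Ifitm3 (3.09), the lysosomal gene Cln3 (2.03), Lyn (2.00), S100a4, Dnajc15 (1.60), F2rl1, a protease-activated receptor (27.8 and 78.6 CPM), H2-Q6 (1.42), Mrpl57 (1.39) and Slc25a11 (1.30). Without the monocyte-RNA cells Plac8, Ifitm3 and Lyn were left with too few UMIs to be measured, at 0.99, -0.01 and 0.50. Cln3 stood at 16.7, 68.2 and 23.3 CPM and kept a ratio of 2.33 without those cells.

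**Figure D5:**
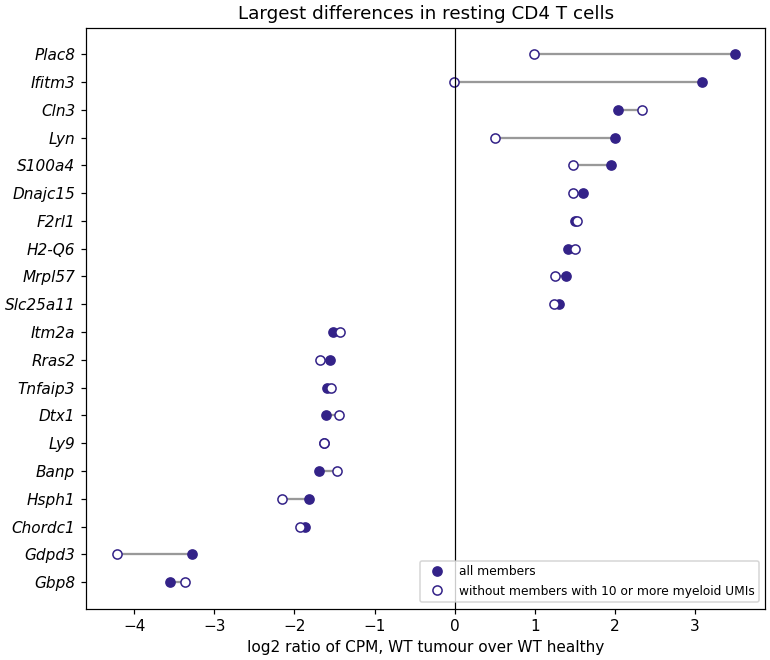
Log2 ratio of CPM in WT tumour over WT healthy for the 10 lowest and the 10 highest genes of the rule for named genes, over all members (filled) and without members with at least 10 monocyte and macrophage UMIs (open). Plac8, Ifitm3 and Lyn move from 3.49, 3.09 and 2.00 to 0.99, -0.01 and 0.50, while the 10 lowest genes stay below -1.4.

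PPARg-/- tumour was then set against WT tumour, groups that differ by Csf1rCre in the labels. The deletion itself could not be checked in these cells. Of 6072 genes 135 (2.22%) were higher in PPARg-/- tumour and 268 (4.41%) lower, and the log2 ratios had a median of -0.02. Without the monocyte-RNA cells 111 of 5508 (2.02%) were higher and 154 (2.8%) lower, of which 77 and 117 were called in both. The comparison shares the WT tumour library with the one above, so a gene high in WT tumour alone appears in both.

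Naive genes differed little between the tumour libraries. Of 16 measured, 0 were higher and 1 was lower, Dapl1, a gene of naive and early memory T cells, at 448 and 271 CPM (-0.72, interval -0.99 to -0.45; -0.80 without the monocyte-RNA cells). Satb1 (-0.02), Igfbp4 (0.07) and Lef1 (-0.11) had intervals that included 1-fold. S1pr1 stood at 455 and 366 CPM (-0.31, -0.56 to -0.07), below the 1.5-fold limit. The median of the list was -0.03.

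Memory genes gave a split that rested on the monocyte-RNA cells. With all members 4 of 18 were lower (Cd44, Lgals3, Ahnak and Anxa2) and Ccl5 was higher, at 297 and 493 CPM (0.73, 0.48 to 0.99). Without those cells 0 of 17 were lower, and Ccl5 was at 0.67. When only members with more naive than memory UMIs were kept, the Ccl5 ratio was -1.40. Ccl5 is itself on the memory list, so this choice removes cells rich in Ccl5 and cannot check its ratio. S100a4 (-0.12) and S100a6 (-0.11) were at similar levels with all members, and at 0.58 and 0.37 without the monocyte-RNA cells, within 1.5-fold or with an interval that included 1.

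Of 18 immediate-early genes 4 were lower in PPARg-/- tumour with all members: Fos (-1.65), Dusp1 (-1.61), Zfp36 (-1.25) and Nr4a1 (-0.80). Without the monocyte-RNA cells only Fos was (-0.88), on 45 UMIs in WT tumour and 26 in PPARg-/- tumour. In WT tumour those cells held 48 of the 69 Dusp1 UMIs and 29 of the 55 Nr4a1 UMIs.

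The heat-shock genes did not share a direction here. Of 16 measured, Dnajb1 was higher (94.9 and 149 CPM, 0.65, interval 0.18 to 1.12) and Dnajb4 lower (-0.63), with a median of 0.11. Chordc1 (0.65, -0.08 to 1.40) and Hsph1 (0.60, -0.15 to 1.37) had intervals that included 1-fold. Of 26 interferon genes Isg15 (-1.42) and Ifit1 (-1.16) were lower, on 40 and 32 UMIs over both libraries, whereas with at most 5% mitochondrial UMIs 0 of 23 were lower and 1 was higher. Of 21 cytokine signalling genes Il2rb, the shared receptor chain for interleukins 2 and 15, was higher (19.3 and 43.8 CPM, 1.18) and Socs1 lower (-1.16). With at least 3 CD3 and 2 Cd4 UMIs per cell the Il2rb ratio was -1.46. Runx1, a T cell transcription factor, was lower (-0.75) with all members and at -0.57 without the monocyte-RNA cells.

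The remaining lists held 0 to 2 called genes. Of 17 receptor signalling, 5 helper, 5 checkpoint, 14 glycolysis and 15 MHC class I genes 0 were called in either direction. Ndufs6, a subunit of respiratory complex I, was lower (-0.63), Hmgb2, a chromatin protein of dividing cells, was higher (0.63), and of 11 cholesterol genes 2 were lower, Msmo1 among them, and 0 of 9 without the monocyte-RNA cells. Of 15 homing genes Ccr2 was lower with all members and not measured without the monocyte-RNA cells. Of 6 measured regulatory T cell genes outside the rule Il2rb was higher. Of 7 measured cytotoxic genes Ccl5 was higher and Gzma lower (-1.61), and without the cell richest in it Gzma was at 0.98.

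The largest differences between the tumour libraries were on low counts. Under the rule for named genes the highest were Ctdspl2 (1.37), Phf21a, a chromatin reader (1.30), the cohesin regulator Pds5b (1.28), the Rac exchange factor Arhgef6 (1.25), the exoribonuclease gene Eri1 (1.14), Slc49a4 (1.11), the RNA polymerase III repressor Maf1 (1.10), Snhg6 (1.10), Arhgap31 (1.01) and Trim59 (1.01). Arhgef6 stood at 35.6 and 84.6 CPM (interval 0.54 to 2.00). The lowest under that rule were Cln3 (-1.55), the kinase gene Dyrk1a (-1.36), Hpcal1 (-1.25), Crybg1 (-1.25), the acetyltransferase gene Kat6b (-1.22), Samsn1 (-1.19), Serinc1 (-1.17), the protein kinase D gene Prkd3 (-1.17), Mfap1a (-1.15) and Nubp1 (-1.14). Hpcal1 (-0.85), Prkd3 (-0.72) and Snhg6 (0.83) had intervals that included 1-fold without the monocyte-RNA cells. Gbp8, lowest in the comparison above, was at 4.45 and 43.8 CPM in the tumour libraries (3.30, 1.61 to 5.65), outside the rule for named genes since it had 33 UMIs over both libraries.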

How the data were processed

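The authors' deposited matrices give unscaled counts of UMIs for each gene and barcode, from droplet-based 3' single-cell libraries with no cell filter (6794880 barcodes and 32285 genes per library). Cell Ranger 6.0.1, Seurat 4.0.1 and mm10 are named per the submitters' processing notes, while the matrix headers name Cell Ranger 4. Settings of the aligner: not given in the sources used here. The series title names a different subject, so the groups were taken from the sample labels.

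Members' UMIs were summed per library (900006, 674262 and 685359) and scaled to CPM. Ratios of CPM are log2 values with exact conditional binomial (Clopper-Pearson) 95% intervals, and shares have exact binomial intervals. These cover counting error only, and with 1 library per group no test was made. A gene was measured at 20 UMIs over both libraries and called at 1.5-fold with an interval that excludes 1. Ratios against 0 used a floor of 3 counts. Free RNA was read from barcodes of 10 to 100 UMIs. Doublets were marked with Scrublet in scanpy 1.11.5 (expected rate 6%) and left in: 53, 106 and 142 barcodes, of which 3, 9 and 5 members.

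Genes were read in 28 lists, 18 of T cell programmes and 10 of other cells. Named genes were the 10 highest and 10 lowest ratios per comparison among called genes with at least 50 UMIs, leaving out genes of the selection rule, sex-linked marker, mitochondrial, ribosomal protein, immunoglobulin, haemoglobin and T cell receptor V genes, unnamed gene models, genes open to free RNA and genes with over 25% of UMIs in 1 cell, and in each list the called genes and up to 4 of the most abundant. A few genes are not reported here. Members and lists were chosen with earlier results of these data known. Positions are from GENCODE M21 (GRCm38). The calculation was run on simulated Poisson counts with known folds, the model that its intervals assume, so this checked the code only. UMIs that come together in single cells were not simulated. Python 3.11.15, numpy 2.4.6, scipy 1.17.1 and pandas 2.3.3 were used. The alternatives changed the cell limits, doublets, depth, scaling, gene filter and fold.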

Additional observations from a re-analysis of the deposited data

Results flagged for a closer look

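In 12 cases a gene past 1.5-fold in resting CD4 T cells was past 1.5-fold in the opposite direction in CD8 T cells of the same libraries, picked by the same rule with Cd8a and Cd8b1 in place of Cd4. Only genes of the lists and genes named by the rule were set side by side, 274 measured in both classes in WT tumour over WT healthy, with 2 such cases, and 270 in PPARg-/- tumour over WT tumour, with 10. Values below are the log2 ratio in CD4 minus that in CD8 T cells. None of these differences was tested, since each group is 1 library.

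In WT tumour over WT healthy the difference was 3.25 for Gzma, a granzyme, with ratios of 2.19 and -1.06, and 4.15 for Plac8 (3.49 and -0.66). The Gzma value in resting CD4 T cells came from 2 cells in WT tumour, 1 of which held 22 of the 24 UMIs. Without the cells with at least 10 monocyte and macrophage UMIs, Plac8 had too few UMIs to be measured in resting CD4 T cells.

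In PPARg-/- tumour over WT tumour, with the CD4 and CD8 ratios after each value, the difference was -3.31 for Gzma (-1.61 and 1.71), -3.32 for Ifitm3 (-1.14 and 2.19), -3.04 for Dusp1 (-1.61 and 1.43), -2.77 for Nr4a1 (-0.80 and 1.97), -1.87 for Zfp36 (-1.25 and 0.62) and -1.73 for Plac8 (-0.91 and 0.82). It was -2.22 for the interferon-induced gene Isg15 (-1.42 and 0.80), -2.10 for Samsn1 (-1.19 and 0.92) and -1.94 for Kat6b (-1.22 and 0.71). For the chemokine receptor gene Ccr2 it was -2.08, with 93.4 and 46.7 CPM in resting CD4 T cells of WT tumour and PPARg-/- tumour and 45.9 and 96.9 CPM in CD8 T cells.

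Cells with at least 10 monocyte and macrophage UMIs numbered 6, 9 and 7 of the members and 2, 18 and 40 of the 201, 424 and 553 CD8 T cells. With these cells left out of both classes, Isg15 (-1.84 and 0.83) and Gzma (-1.67 and 1.71) were still called in opposite directions between the tumour libraries. The Gzma ratio in resting CD4 T cells was 0.98, however, without the cell richest in it, 0.97 in members with 0 activation UMIs, and 0.71 with at least 3 CD3 and 2 Cd4 UMIs. Dusp1 (-0.16 and 0.47) and Zfp36 (-0.61 and 0.11) were not called in either class. Nr4a1 (-0.26 and 1.20) was called in CD8 T cells only, and Kat6b (-1.41 and 0.64) and Samsn1 (-1.22 and 0.23) in resting CD4 T cells only. Ccr2, Ifitm3 and Plac8 had too few UMIs in resting CD4 T cells. Isg15 rested on 27 and 8 UMIs in resting CD4 T cells of WT tumour and PPARg-/- tumour.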

How the results depend on the processing

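No paired analysis was possible because each group is 1 library. Of 224 values recomputed for results that answer a comparison, 187 stayed close to the reported ones and 37 moved. Of 2460 for single genes and lists, 2140 stayed close, 301 moved and 19 changed direction. The causes were not tested beyond what each setting does to the cells or genes.

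With at least 3 CD3 and 2 Cd4 UMIs, 77, 49 and 56 members were left, and 133 genes were higher and 178 lower in WT tumour over WT healthy (3069 measured), and 44 higher and 119 lower in PPARg-/- tumour over WT tumour (2112 measured). The genes set apart from CD8 T cells then numbered 16 higher and 32 lower, Satb1 was found in 58.4% of thinned WT healthy and 30.4% of PPARg-/- tumour members, S100a4 in 5.19% and 3.57%, and 73.5% of WT tumour members had more naive than memory UMIs. Under that limit Dusp2 (0.31), Gzma (-1.02) and Pgam1 (-0.21) changed direction in WT tumour over WT healthy, and Dnajb4 (0.13), Gzma (0.71), Il2rb (-1.46) and Snhg6 (-0.19) in PPARg-/- tumour over WT tumour. With at most 5% mitochondrial UMIs, 175 of 4783 measured genes were lower in the latter comparison and 128 PPARg-/- tumour members were left. The shares were then 52.5% for Satb1 in WT healthy, 37.8% for Tcf7 in WT tumour and 36.7% for Lef1 in PPARg-/- tumour. With 0 contaminant UMIs Tcf7 was found in 36.9% of WT healthy and Satb1 in 39.7% of PPARg-/- tumour members. With 0 activation UMIs the PPARg-/- tumour over WT tumour ratio of Gzma was 0.97, and without the cell richest in Gzma it was 0.98.

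Without barcodes marked by Scrublet 170 of 5711 measured genes were lower in PPARg-/- tumour over WT tumour and Lgals3 was at 0.049. Without the cells with at least 10 monocyte and macrophage UMIs 154 of 5508 were lower, Ccr2 was at 0.43, and Ifitm3 in WT tumour over WT healthy at -0.011. Thinning every cell before the rule left 56, 55 and 88 members. Thinning the members gave 64 higher and 132 lower of 2681 measured genes in WT tumour over WT healthy, with H2-Q4 at 0.022. It gave 48 higher and 67 lower of 2667 in PPARg-/- tumour over WT tumour, with Ccr2 at 0.23 and Dnajb4 at 0.080. Only members with more naive than memory UMIs gave -1.40 for Ccl5, 0.020 for Dusp1, 0.020 for Gzma and 0.072 for Nr4a1 in that comparison. Ccl5 is on the memory list by which these members were chosen, so its ratio is not checked by this setting. At 50 UMIs over both libraries 164 of 3687 measured genes were higher in WT tumour over WT healthy. Of 3210 measured in PPARg-/- tumour over WT tumour, 62 were higher and 132 lower. At 2-fold 176 were higher and 175 lower of 6582 genes in the first comparison, and 83 and 168 of 6072 in the second. Depth limits genes under 20 UMIs, which were not compared.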
